A study of Mus musculus with 10 samples.

Results

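The solute carriers are the gene families that encode most of the transporters of the cell membrane and of the organelle membranes. Their probes were taken from the array annotation and had a single gene symbol. The symbol had to begin with Slc, a family number, the letter a and a member number, or with Slco and a number. This let in Slc9a3r1, Slc9a3r2 and Slc4a1ap, which are not transporters. These 3 genes, with 4 tested probes, are counted among the solute carriers below. The genes Slc6a3, Slc18a2, Slc1a2, Slc1a3, Slc4a4 and Slc4a5 were left out by the same rule. This gave 262 of the 20355 probes, for 196 of the 9930 genes named on the array. Of these, 208 probes of 163 genes were tested, because 4 or more mice had a ratio from each of their arrays, 54 probes were not, and 33 genes had no tested probe. The mutant samples were brains of 5 male Cin85-/- mice aged 15 weeks, and each brain was hybridised on 2 dual-channel arrays with the dyes exchanged between them. The other channel of all 10 arrays held 1 pool of wildtype male brains of the same age, made from 5 animals according to the design and from 6 according to the labelling protocol. The pool is therefore a single control sample, and no spread between wildtype animals was measured. The labels give neither the kind of allele nor the strain background. Cin85, encoded by Sh3kbp1, is an adaptor protein of receptor endocytosis.

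Solute carriers move small molecules down a gradient or couple their uphill transport to the flow of sodium, protons or another ion. In the brain they clear neurotransmitters from the synapse and load them into vesicles, carry glucose and amino acids across the blood-brain barrier, set the chloride level of neurons, and exchange metabolites across the inner mitochondrial membrane. How much of a transporter stands at the cell surface also depends on its endocytosis and recycling, which an RNA measurement does not see.

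The deposited values were log2 ratios, and no source used here names the channel in the numerator. Signs below are those of the deposited scale, so positive and negative carry no settled direction relative to the pool. The mean of the 2 arrays of a mouse is called the mouse value, and it is the Cin85-/- ratio to the pool if the arrays of both dye orientations were turned the same way before deposit. The ratio with the mutant in Cy5 minus that with the mutant in Cy3, divided by 2, is called the dye term, and it is the difference from the pool if all arrays were left as Cy5 over Cy3. Both quantities were tested. Values in lists run from mouse 1 to mouse 5, and ± gives the SD over mice.

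The arrays held 16816 to 19424 values each, of which 207 to 253 were solute carrier values, and the array of mouse 3 with the mutant in Cy3 had the fewest of both. The middle 50% of its ratios spanned 1.43 on the log2 scale, against 0.453 to 0.994 on the other arrays, so mouse 3 is named wherever it sets a value. Pearson correlations between arrays over all probes were 0.063 to 0.211 within a dye orientation and -0.212 to -0.021 between orientations. Sh3kbp1 itself gave mouse values of 0.018, 0.0060, -0.16, 0.22 and -0.042 on probe 8640, with an adjusted p of 0.989 by limma. The stretch of transcript under that probe is unknown here, so this value does not check the genotype. Probe 4508, the other one for this gene, gave large ratios on the 4 arrays that held a value. With the mutant in Cy5 these were 2.71 in mouse 2, 3.19 in mouse 4 and 17.65 in mouse 5, the last an extreme ratio. With the mutant in Cy3 the ratio of mouse 4 was -2.38. Mouse 4 alone had both arrays, and its ratio changed sign with the dye. Its mouse value was 0.41. The bearing of this probe on the direction of the ratios was not tested.

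No solute carrier differed between Cin85-/- brains and the pool past the threshold. By limma on the 5 mouse values, 0 of 208 probes had a Benjamini-Hochberg adjusted p under 0.05, and the smallest was 0.911. Over all 16939 probes tested the share was 0%, with the same minimum. Unadjusted, at a threshold of 0.05, 3 solute carrier probes were positive and 3 negative, or 2.88% of the 208, against 1.94% of all probes positive and 1.79% negative. Without variance moderation, 10 solute carrier probes passed the unadjusted threshold (4.81%, against 4.21% of all probes) and 0 the adjusted one. Among the 168 probes measured on both arrays of all 5 mice, 6 were positive in every mouse and 8 negative in every mouse, which is 8.33%. Of all 13572 such probes, 3.45% were positive and 3.57% negative in every mouse. The solute carriers were therefore near the background on each of these counts.

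The intervals bound the size of a difference, and the bound depends on the reading of the arrays. For 127 of the 208 probes (61.1%) the 95% interval of the mean mouse value stayed within 1.5-fold in both directions, and for 174 (83.7%) it stayed within 2-fold. Over all probes these shares were 60.7% and 85.8%. The dye term was less tightly bounded, with 82 of the 208 intervals (39.4%) within 1.5-fold, against 38.9% of all probes. For the other 34 solute carrier probes the interval of the mouse value reached past 2-fold, and a difference of that size was not bounded with these mice. Averaged by gene, the median log2 ratio was 0.0067, with 85 genes positive and 78 negative, against -0.0033 over the 8711 genes tested, with 4288 positive and 4422 negative. The gene mean exceeded 1.5-fold in size for 7 solute carrier genes (4.29%) and for 3.94% of all genes. In a whole brain, fewer cells of a type and less RNA per cell cannot be told apart.

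**Figure D1:**
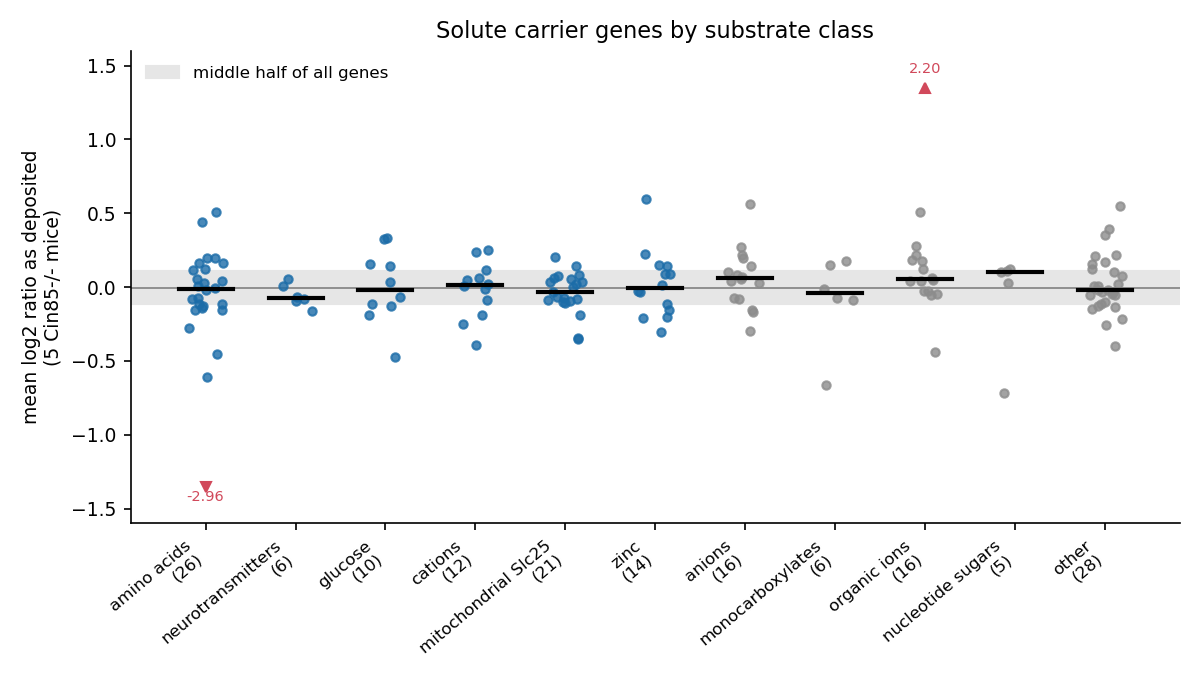
Mean log2 ratio of each solute carrier gene over the Cin85-/- mice, by substrate class, with the number of genes in brackets and the 6 classes compared by substrate in blue. Black lines are class medians, the grey band spans the middle 50% of all genes, and the red triangles are Slc38a4 at -2.96 and Slco1c1 at 2.20, both of which include an extreme ratio; the 3 genes that are not transporters are left out. All class medians lie close to 0.

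Neurotransmitter transporters showed no difference past the threshold under either reading. For the mouse value, all 9 probes of the 6 genes tested stayed within 1.5-fold by their 95% intervals, while for the dye term 3 of the 9 did. By the mouse value 2 genes were positive and 4 negative, and the median log2 ratio was -0.074. Slc32a1, which loads GABA and glycine into synaptic vesicles, had mouse values of -0.082, -0.080, 0.31, -0.12 and 0.24, a mean of 0.05 ± 0.20 with an interval of -0.21 to 0.32. Slc6a11, the GABA transporter of astrocytes, had 0.27, -0.60, 0.33, -0.28 and 0.33, for a mean of 0.01 ± 0.43. For both genes the 5 mice fell on either side of 0.

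Slc6a9, which takes up glycine, averaged -0.095 ± 0.18, with mice from -0.33 to 0.089. Slc6a4, the serotonin transporter of raphe axons, averaged -0.16 ± 0.42, and its mice ran from -0.64 in mouse 5 to 0.32 in mouse 2. The spread between mice exceeded the mean mouse value for each, while the dye term of Slc6a9 was -0.37. Slc1a1, the glutamate transporter of neuronal membranes, was read by 4 probes, which averaged -0.086, 0.0049, -0.19 and -0.042. Mouse 5 stood at -0.71 on probe 13419 while the other mice lay between -0.18 and 0, whereas the same mouse stood at 0.26 on probe 16052. Slc1a6, the glutamate transporter of Purkinje cells, averaged -0.068 ± 0.25.

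Vesicular glutamate transport could not be tested. Slc17a7, which fills vesicles with glutamate in cortical and hippocampal neurons, had values on 8 arrays but on both arrays of 3 mice only, and its single-array ratios ran from -4.58 to 3.03. Slc17a8, the related transporter of other neurons, had values on 5 arrays, from -2.38 to 2.39. Both ranges are far wider than those of the tested neurotransmitter transporters.

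Amino acid transporters numbered 26 tested genes, 12 positive and 14 negative, their median was -0.014, and the medians of the 5 mice lay between -0.11 and 0.054. Slc6a20b, a transporter of proline and related imino acids, had on probe 148 the smallest p of all solute carriers. Its mouse values were 0.39, 0.61, 0.99, 0.12 and 0.88, all on the positive side. The mean was 0.60 ± 0.35 with an interval of 0.23 to 0.97, and by limma its adjusted p was 0.911. The positive values came mostly from the arrays with the mutant in Cy3, which averaged 1.05, against 0.15 for those with it in Cy5. A second probe, 9930, averaged 0.29 ± 0.50, with 4 of 5 mice positive. Its close relative Slc6a20a averaged -0.082 ± 0.15 on its own probe, with 1 mouse of 5 positive.

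Slc36a3, of the family of proton-coupled amino acid transporters, averaged 0.33 ± 0.14 over 4 mice on probe 5985, which ran from 0.20 to 0.49. Its other probe, 10304, averaged -0.0084 ± 0.34 with 3 of 4 mice negative, so the probes of the gene did not give the same sign. Slc6a17, a vesicular transporter of neutral amino acids in neurons, averaged 0.28 ± 0.16 over 4 mice on probe 17738, but -0.18 and -0.020 on its other 2 probes. For Slc36a3 and Slc6a17 the positive mean thus rested on a single probe.

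The Slc38 family, which carries glutamine and other neutral amino acids, had 6 of 7 tested genes below 0 and a median of -0.27. The dye term had the opposite balance, with 6 genes positive, 1 negative and a median of 0.048. Slc38a1, which supplies neurons with glutamine, averaged -0.13 ± 0.42 and was negative in 4 of 5 mice. Slc38a2, of like function, averaged -0.20 and -0.073 on its 2 probes. Slc38a4 had mouse values of 0.45, -1.93, -9.29 and -1.07, and the value of mouse 3 holds an extreme ratio of -16.7. Without Slc38a4 the family had 5 of 6 genes negative and a median of -0.21. None of its probes passed an unadjusted p of 0.05 by limma. The family was singled out after its values were seen, and its count is a description.

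Slc3a2, the heavy chain that brings several amino acid exchangers to the membrane, averaged -0.11 ± 0.30 and was positive in 3 mice and negative in 2. Its partner Slc7a5, the large neutral amino acid exchanger of the blood-brain barrier, had values on 8 arrays, from -1.85 to 5.82, and was not tested. Slc38a3, a glutamine carrier of astrocytes, had values on 4 arrays only.

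Glucose and related sugar transporters numbered 10 tested genes, 5 positive and 5 negative, with a median of -0.018. Slc2a3, the main glucose transporter of neurons, had mouse values of -0.62, 0.12, -1.40, -0.45 and -0.020. Mouse 3 was the lowest and mouse 2 lay above 0. The mean was -0.48 ± 0.60 with an interval of -1.03 to 0.084, which reaches past 2-fold on the negative side. Slc2a4, the insulin-responsive transporter, averaged -0.033 ± 0.48 and 0.098 ± 0.24 on 2 probes. Slc2a12, a further member of the family, was negative in all 5 mice, at -0.17, -0.16, -0.0010, -0.20 and -0.038. Its mean of -0.12 ± 0.090 joined an average of 0.15 with the mutant in Cy5 to one of -0.39 with the mutant in Cy3. Slc2a2, the transporter of liver and pancreatic beta cells, averaged 0.14 ± 0.20, and mouse 1 at -0.20 was the only negative mouse.

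Cation transporters numbered 12 tested genes, 7 positive and 5 negative, with a median of 0.014. The chloride-setting pair of the brain lay close to 0. Slc12a5, which exports chloride with potassium from mature neurons, had mouse values of 0.11, 0.18, -0.38, 0.10 and 0.25, with mouse 3 alone below 0 and a mean of 0.05 ± 0.25. Slc12a2, which imports chloride with sodium and potassium, had 0.22, 0.27, -0.26, 0.16 and -0.075, with a mean of 0.06 ± 0.22. The intervals, -0.25 to 0.35 for Slc12a5 and -0.22 to 0.34 for Slc12a2, stayed within 1.5-fold.

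The sodium/calcium exchanger Slc8a1 averaged -0.25 ± 1.02 over 4 mice, from -1.28 in mouse 1 to 1.15 in mouse 5, and a 2-fold difference lay inside its interval. Slc8a2, its relative in neurons, averaged -0.13 ± 0.22 and -0.054 ± 0.17 on 2 probes. Slc11a2, the divalent metal transporter that takes up iron, averaged 0.43 ± 0.46 on probe 15848, with mouse 1 at -0.21 and the other mice from 0.23 to 0.93. That mean joined an average of -0.39 with the mutant in Cy5 to one of 1.25 with it in Cy3. On its other probe Slc11a2 averaged 0.072 ± 0.42. Slc31a1, the copper importer, averaged 0.24 ± 0.24, with mouse 4 at -0.017 and the other mice from 0.047 to 0.54.

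Mitochondrial carriers of the Slc25 family numbered 21 tested genes, 10 positive and 11 negative, with a median of -0.036. They varied least between mice among the 6 classes, with a median SD of 0.207 over their 26 probes, against 0.340 over all probes. Of 23 probes measured in all 5 mice, 5 kept a single sign, which is 21.7%, against 7.01% of all probes. In the dye term 7 of the 23 did, which is 30.4%, against 30.5% of all probes. The share for the mouse value was noticed after the values were seen and is given without a test. Slc25a5, an ADP/ATP carrier, had mouse values of -0.17, -0.28, -0.12, -0.27 and -0.11. All 5 mice were negative and close together. The mean was -0.19 ± 0.080 with an interval of -0.40 to 0.025, and by limma its adjusted p was 0.911.

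Slc25a12, the aspartate/glutamate carrier of neurons, had -0.18, -0.31, -0.97, -0.28 and -0.012, again all negative, with mouse 3 the farthest. Its mean was -0.35 ± 0.37. The remaining probes of a single sign were the negative probes of Slc25a10, a dicarboxylate carrier, and Slc25a23, a calcium-dependent ATP carrier, and the positive probe of Slc25a1, the citrate carrier. They averaged -0.16, -0.17 and 0.14. The mean of the Slc25a23 probe joined an average of 0.45 with the mutant in Cy5 to one of -0.79 with it in Cy3. The second probes of Slc25a10 and Slc25a23 had the opposite sign, at 0.29 ± 0.80 and 0.040 ± 0.12. Slc25a3, the phosphate carrier that feeds ATP synthesis, averaged 0.0009 ± 0.12 with an interval of -0.22 to 0.23. Its arrays lay far apart by dye, at 0.67 with the mutant in Cy5 and -0.67 with the mutant in Cy3.

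**Figure D2:**
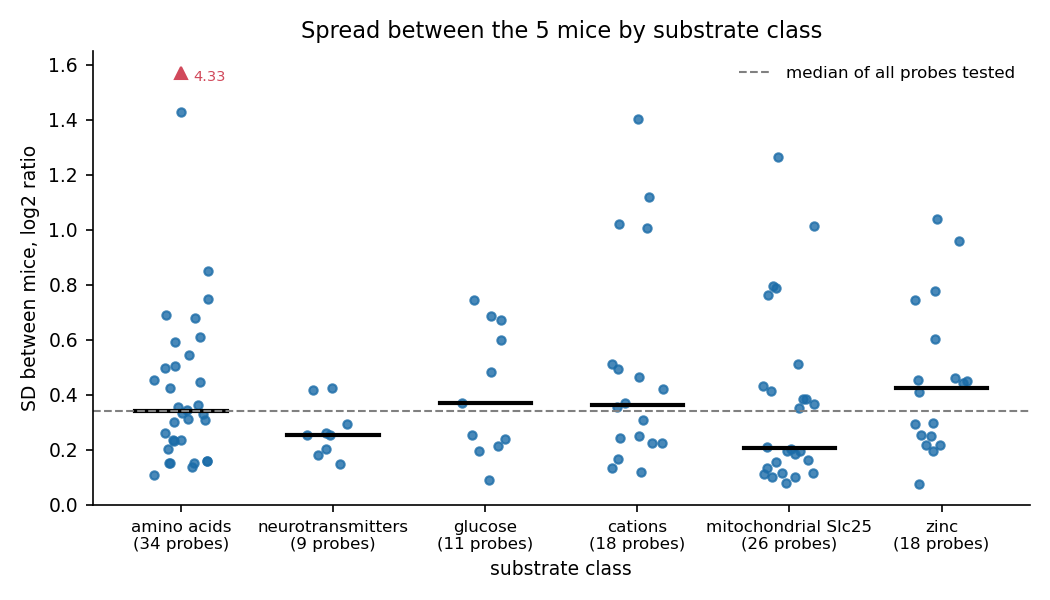
SD of the mouse values of each tested probe (log2 scale), by substrate class, with class medians as black lines and the median of all probes tested as a dashed line. The Slc25 probes have the lowest median, 0.207, and the zinc probes the highest, 0.426; the triangle is Slc38a4 with an SD of 4.33, which holds an extreme ratio.

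Zinc transporters numbered 14 tested genes, 7 positive and 7 negative, and their median was -0.0060. They had the widest spread of the 6 classes. Slc39a13, a zinc transporter of intracellular membranes, had on probe 7962 mouse values of -0.20, -0.24, -0.36, -0.30 and -0.16. All 5 were negative, for a mean of -0.25 ± 0.077 with an interval of -0.46 to -0.039, and by limma its adjusted p was 0.911. On its other probe, 2540, the 4 measured mice were all positive, from 0.015 to 1.04, with a mean of 0.42 ± 0.45. The probes of this gene thus contradicted each other.

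Slc30a3, which loads zinc into synaptic vesicles of glutamatergic neurons, averaged 0.013 ± 0.41, with mice from -0.42 to 0.64. Slc30a1, the zinc exporter of the cell membrane, averaged 0.15 ± 0.60 over 4 mice. Neither differed from 0 by more than the spread between mice. Slc39a10, a zinc importer, was negative on all 3 probes, at -0.40, -0.042 and -0.47, but mouse 3 alone reached -1.75 on the probe with the lowest mean.

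**Figure D3:**
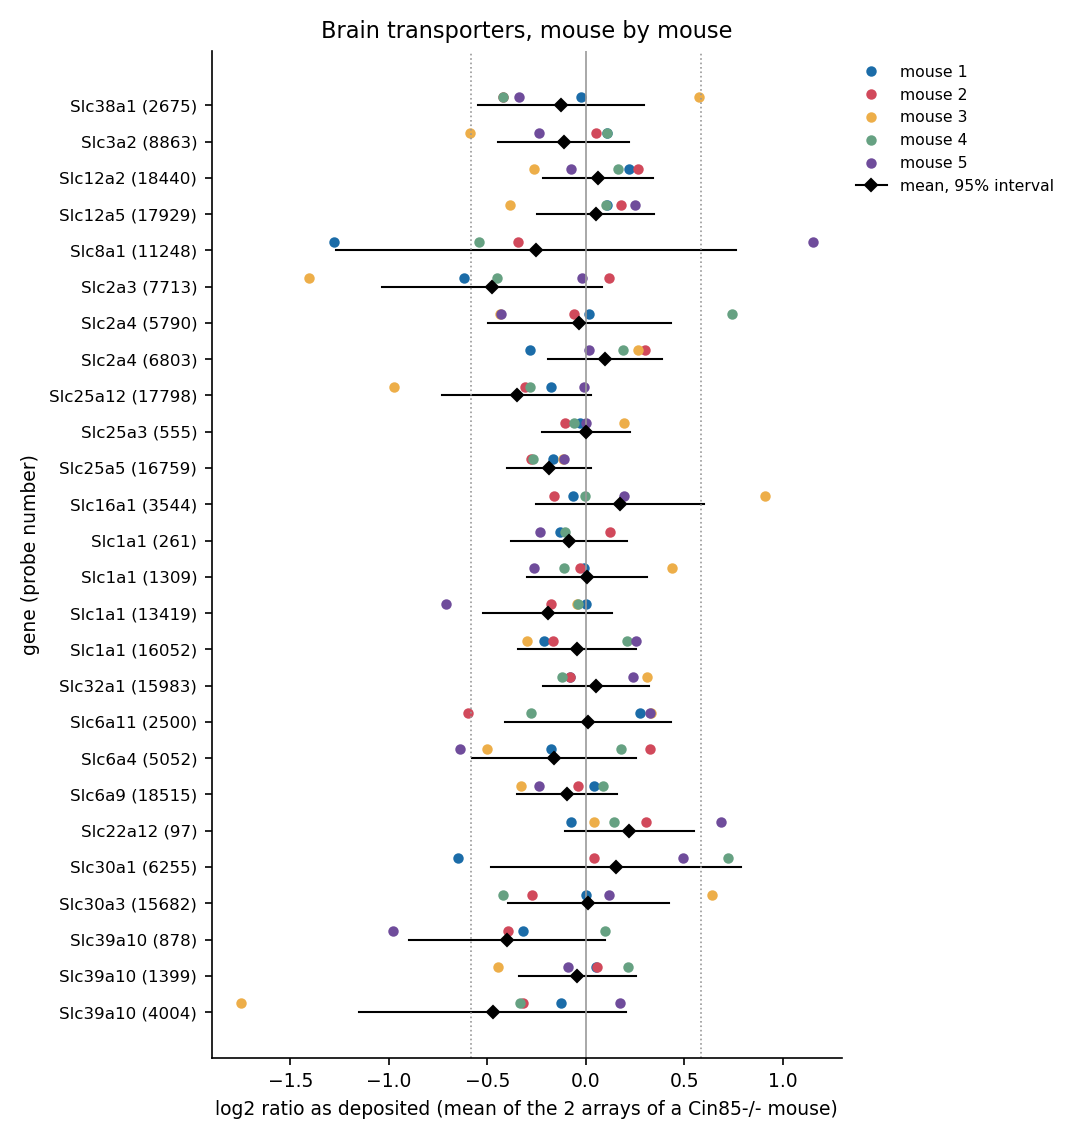
Mouse values (coloured points) with the mean and 95% interval (black) on the log2 scale for the tested probes of transporters of known role, without Slco1c1, whose value in mouse 1 lies off the scale at 9.22. Dotted lines mark 1.5-fold in either direction, and every interval contains 0.

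Of 35 listed transporters of known role in the brain or kidney, 21 were tested on 27 probes, 3 had an untested probe only, and 11 had no member probe. Of the 27 probes 12 were positive and 15 negative, 19 had an interval within 1.5-fold, 23 within 2-fold, and 0 passed an unadjusted p of 0.05 by limma. In the dye term 10 of these probes had an interval within 1.5-fold and 8 passed the unadjusted threshold. Of all probes, 27.6% passed it in the dye term and 3.73% by the mouse value. Among transporters of the barrier and of organic ions, Slco1c1, which carries thyroxine into the brain, was positive in all 5 mice at 9.22, 0.74, 0.41, 0.53 and 0.094. The value of mouse 1 includes an extreme ratio of 16.5. With that value missing, the mean over 4 mice was 0.44 ± 0.27, with an adjusted p of 0.918 by limma. Slc16a1, which carries lactate and ketone bodies, averaged 0.17 ± 0.43, set by mouse 3 at 0.91 while the other mice lay between -0.16 and 0.19. Slc22a12, the urate transporter of kidney, averaged 0.22 ± 0.30.

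The remaining members with an unadjusted p under 0.05 were named after their values were seen. Slc29a3, a nucleoside transporter of lysosomes, averaged 0.76 ± 0.83 on one probe and -0.42 on the other. Slc22a16, a carnitine transporter, averaged -0.44 ± 0.36 over 4 mice, all negative. Slc4a1ap, an adaptor protein named after an anion exchanger and not itself a transporter, averaged -0.56 ± 0.56 on one probe and 0.16 on the other. The adjusted p by limma was 0.911 for each of these 3. Of the further classes, the 16 genes for organic ions had a median of 0.054 with 11 positive, the 16 for anions a median of 0.061 with 11 positive, the 6 for monocarboxylates a median of -0.041 with 2 positive, and the 5 for nucleotide sugars a median of 0.10 with 4 positive.

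The dye term gave a different set of signs and likewise no solute carrier past the threshold. By limma 0 of 208 probes passed an adjusted p of 0.05, with 0% of all probes, and the lowest value was 0.0988. Unadjusted, at a threshold of 0.05, 31 solute carrier probes were positive and 25 negative, against 13.6% of all probes positive and 14% negative. Of 168 probes, 19 were positive and 26 negative in all 5 mice, against 12.4% and 18% of all probes. The 26.9% of solute carrier probes past the unadjusted threshold stood beside 27.6% of all probes. Averages of the 2 dye orientations had the same sign for 69 of the 208 probes (33.2%) and for 29.2% of all probes. Across probes the averages correlated at r = -0.38 (Spearman -0.40) for solute carriers and -0.42 (-0.46) for all probes, a description over probes that share the same arrays.

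The smallest dye term p belonged to Slc22a17, the lipocalin receptor of brain, whose probe 17901 averaged 0.59 on the arrays with mutant RNA in Cy5 and -0.72 on those with it in Cy3. Its dye term was 0.66 ± 0.22 while its mean over both orientations was -0.067 ± 0.23. With the columns scaled to a like spread, it was the only solute carrier past the threshold in the dye term, at 0.65 with an adjusted p of 0.0497 by limma, among 257 of all probes (1.52%). Slc38a10, Slc25a3, Slc6a20a, Slc36a1 and Slc39a7 followed, with dye terms of 0.86, 0.67, 0.46, 0.58 and -0.56 and an adjusted p of 0.0988 each by limma.

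Glucose transporters had the largest dye term median of the 6 classes, 0.31, with 7 of 10 genes positive, while that of mitochondrial carriers was -0.099 with 16 of 21 negative. These medians were -0.042 for neurotransmitters, 0.012 for amino acids, -0.041 for cations and 0.038 for zinc. Over all genes the dye term median was -0.051. Whether the dye term holds dye bias or the difference from the pool cannot be told apart from these ratios.

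**Figure D4:**
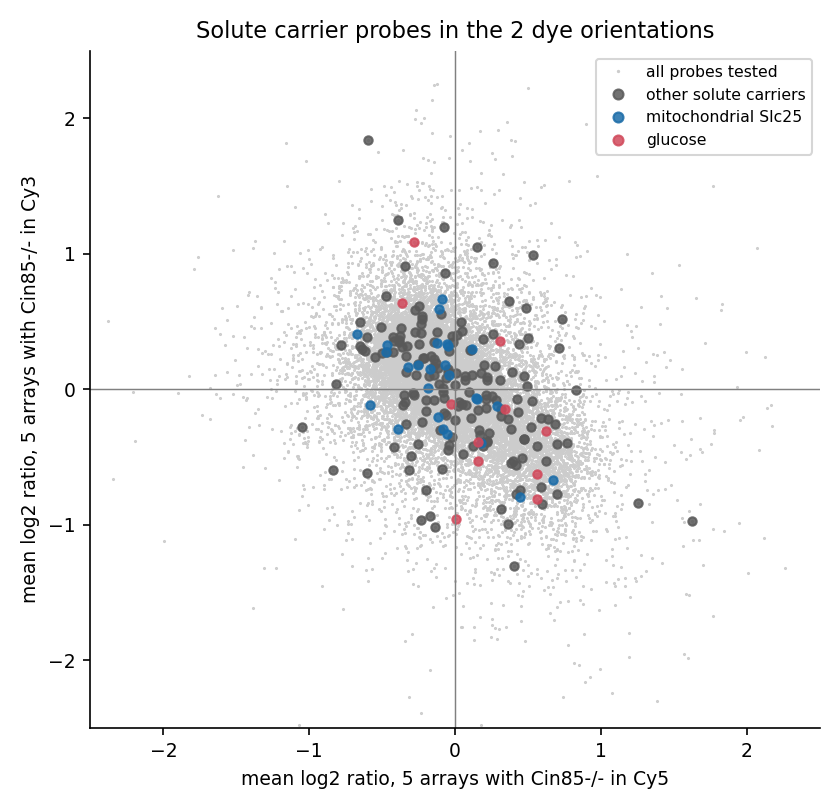
Mean log2 ratio of each tested probe over the arrays with the mutant in Cy5 (horizontal) and in Cy3 (vertical), extreme ratios left out, with all probes in light grey, glucose carriers in red, Slc25 carriers in blue and the other solute carriers in dark grey. Both axes end at 2.5, and the cloud runs from upper left to lower right, with r = -0.38 over the solute carriers.

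Probes of the same gene often differed in sign. Of 38 solute carrier genes with several tested probes, 15 had a single sign on all of them. Among the 33 with exactly 2, 13 (39.4%) shared a sign, with a median gap of 0.24, against 892 of 1764 genes (50.6%) with a median gap of 0.19 over the whole array. Slc37a2, of the sugar-phosphate exchanger family, was positive on all 4 of its probes, from 0.0022 to 0.54. A sign for a single probe was thus not repeated by the next probe more often than not.

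Solute carriers known for the cell types of the brain were compared with those known for kidney, because the mutant samples have the unexplained letters Kdn in their source name. A value on all 10 arrays was present for 76.2% of 21 probes of neuronal carriers, 72.7% of 11 for astrocytes, 70% of 10 for oligodendrocytes, 80% of 10 for endothelium and 70% of 10 for choroid plexus. For kidney carriers it was 38.1% of 21 probes, against 66.7% of all probes. Markers that are not solute carriers had 57.1% of 14 for neurons, 69.2% of 13 for astrocytes and 77.8% of 9 for oligodendrocytes. They had 18.2% of 11 for endothelium, 80% of 5 for choroid plexus and 50% of 12 for kidney. Low completeness was thus not limited to the kidney lists. A ratio needs both channels, and why ratios are missing is unknown here, so the presence of a ratio is no measure of a level.

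**Figure D5:**
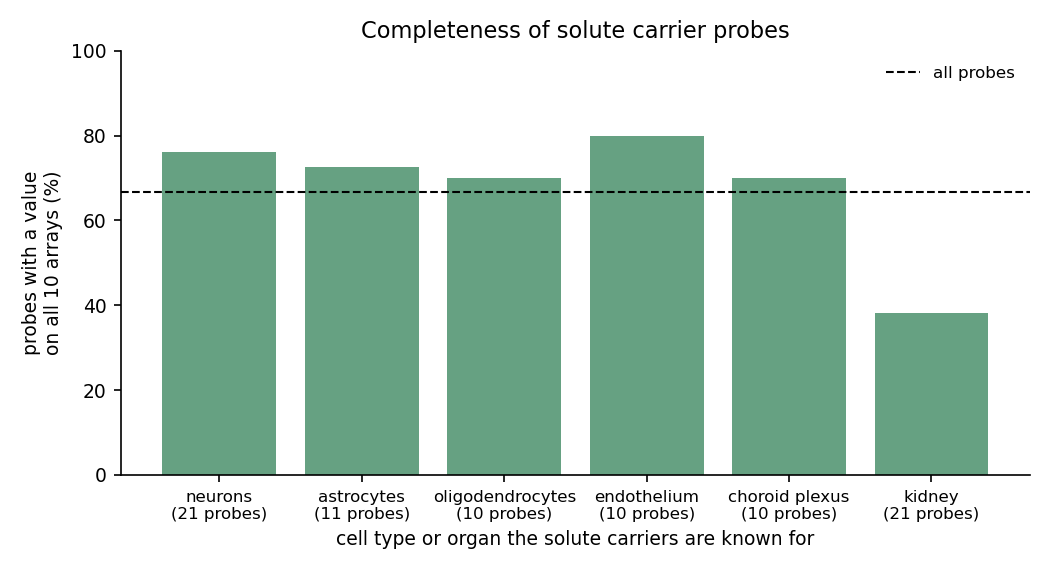
Share of probes with a ratio on all 10 arrays for solute carriers known for each cell type or organ, with the share over all probes as a dashed line. Kidney carriers have 38.1%, and the solute carrier lists for brain cell types have 70% to 80%. Markers that are not solute carriers are not shown, and among them the endothelium list has 18.2%.

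The medians of these lists were -0.074 for neurons (12 genes, 5 positive), -0.13 for astrocytes (8 genes, 3 positive), 0.039 for oligodendrocytes (5 genes, 4 positive), -0.048 for endothelium (8 genes, 2 positive), -0.057 for choroid plexus (8 genes, 3 positive) and 0.15 for kidney (13 genes, 10 positive). Medians of the kidney list by mouse ran from -0.18 to 0.40. The astrocyte list includes Slc9a3r1, which is not a transporter, and the endothelium list includes Slco1c1. Their means of -2.20 and 2.20 each hold an extreme ratio. Markers of the same cell types that are not solute carriers had medians of -0.078 for neurons (8 genes), -0.025 for astrocytes (8), 0.017 for oligodendrocytes (5), -0.089 for endothelium (5), -0.32 for choroid plexus (3) and 0.041 for kidney (6). No gene of any list passed an adjusted p of 0.05 by limma. Unadjusted, 2 of the 5 probes of the choroid plexus markers passed 0.05, against 3.73% of all probes tested. So did 1 of 13 for astrocyte, 1 of 9 for oligodendrocyte and 1 of 12 for kidney markers that are not solute carriers. These probe numbers include probes that were not tested. Medians were negative in every mouse for the choroid plexus markers (-0.51 to -0.17) and the neuronal carriers (-0.11 to -0.00725). In the dye term the carrier medians were 0.043 for neurons, -0.17 for astrocytes and -0.058 for oligodendrocytes. They were 0.091 for endothelium, 0.16 for choroid plexus and -0.0025 for kidney, so only the astrocyte carriers kept their sign. Markers that are not solute carriers changed sign for neurons (0.11), oligodendrocytes (-0.18) and endothelium (0.22). They kept it for astrocytes (-0.058), kidney (0.013) and choroid plexus (-0.063), the last negative on all 3 genes by the mouse value. The signs and sizes of these list medians thus depend on the reading of the arrays. The part of the markers in the values of the solute carriers was not tested.

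Missing ratios limited some classes more than others. A value on all 10 arrays was present for 64.1% of the 262 solute carrier probes, from 51.9% of cation probes and 53.3% of amino acid probes to 83.3% of glucose probes, and 12 probes had values on 5 or fewer arrays. Each array also repeated a single extreme ratio, between 16.43 and 17.65 in size, with no other ratio over 9.18. Solute carriers held 19 of these 1024 values, in 15 probes. All 7 on arrays with the mutant in Cy5 were positive and all 12 on the others were negative. Over all probes, likewise, all 384 on arrays with the mutant in Cy5 were positive and all 640 on the others negative. As each array repeats a single extreme ratio, the sign was fixed by the array. Of the tested solute carrier probes, those of Slc38a4, Slc9a3r1 and Slco1c1 each held an extreme ratio. Slc9a3r1, a scaffold protein named after a sodium/proton exchanger, had a mean of -2.20 ± 4.37 over 4 mice for that reason, with mouse 3 at -8.75 and the others from -0.17 to 0.25.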

How the data were processed

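The values analysed were the log2 ratios deposited by the authors for 20355 probes on 10 arrays. Per the labels' protocols, total RNA was reverse transcribed and labelled indirectly with Cy3 or Cy5. No source used here gives the scanner, the background correction or the normalization. Genes were named by GEO's platform annotation, parts of which may be outdated, and all 262 solute carrier probes had an Entrez identifier in RefSeq with 0 symbols differing. No channel intensity was analysed, so signal over background is unknown, and precision is limited by how many arrays there are.

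Each column was centred on its median and the 2 arrays of a mouse averaged into 1 replicate. The 5 mouse values were tested against 0 with limma 3.58.1 (lmFit, eBayes; R 4.3.3), adjusted by Benjamini-Hochberg over the 16939 probes with both arrays of at least 4 mice. The ratio against 0 leaves out the spread of wildtype mice. Probes of a gene were averaged for class medians. Alternatives were no centring, scaled columns, missing extreme ratios, stricter and looser filters, no variance moderation, all 10 arrays blocked by mouse, alone or beside a dye covariate, each dye orientation alone, all columns read as Cy5 over Cy3, and leaving out each mouse.

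The rule for named genes took any probe past the threshold, the 35 genes of known role, the 3 probes of smallest p in each of 6 substrate classes, and genes with outlying mice or extreme ratios. Others are named after their values were seen. The members, classes and cell type lists were chosen with earlier results of these data known.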

Additional observations from a re-analysis of the deposited data

Results flagged for a closer look

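Of 45 values checked, 5 probes measured in all 5 mice had a mouse farther from the others than Dixon's criterion at 95% allows. Chance alone marks about 1 in 20 groups. Slco1c1 on probe 16001 had mouse 1 at 9.22, which holds an extreme ratio, while the other mice lay from 0.094 to 0.74. Slc39a10 on probe 4004 had mouse 3 at -1.75, and Slc12a5 on probe 17929 had mouse 3 at -0.384. Both involve the mouse whose array with the mutant in Cy3 had the widest spread. Slc1a1 on probe 13419 had mouse 5 at -0.708, and Slc2a2 on probe 19899 had mouse 1 at -0.204.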

How the results depend on the processing

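The count of 0 solute carrier probes past an adjusted p of 0.05 by limma held under all 16 alternatives run. The 6 probes past an unadjusted p (2.88% of solute carrier probes, against 3.73% of all) became 10 without variance moderation (4.81%, against 4.21%). With mouse as a random block they became 10 (4.81%, against 4.5%). They became 59 with the mutant in Cy5 alone (25.2%, against 27.2%) and 34 with it in Cy3 alone (14.7%, against 12.3%). With all columns read as Cy5 over Cy3 they became 56 (26.9%, against 27.6%). Leaving out a mouse gave 4 (without mouse 2, 1.9% against 3.42%) to 11 (without mouse 4, 5% against 3.14%). In the dye term, scaled columns gave 1 call in place of 0. The 14 probes of a single sign became 8 with scaled columns (4.76%, against 7.42% of all) and 63 in Cy5 alone (30.1%, against 29.9%). They became 37 in Cy3 alone (20.4%, against 17.6%) and 45 as Cy5 over Cy3 (26.8%, against 30.5%). When 4 mice had to share a sign, they became 21 (without mouse 1, 12.4%) to 32 (without mouse 3, 16.2%). Of all probes 12.4% to 14.2% did so. The amino acid median was -0.141 in Cy3 alone, that of neurotransmitters -0.173 in Cy5 alone, that of Slc25 carriers 0.122 in Cy3 alone, and that of glucose 0.155 in Cy5 alone, -0.307 in Cy3 alone and 0.308 as Cy5 over Cy3. The cause was not tested. Cation and zinc medians moved by less than the spread between mice under each alternative run. Of the 38 probes named by the rule, 12 changed sign without 1 mouse, 10 of them without mouse 3, and 22 had the opposite sign when all columns were read as Cy5 over Cy3. In Cy5 alone 12 of the 38 had a sign opposite to that of their mean mouse value, and in Cy3 alone 8 did. No mutant mouse could be paired with a wildtype mouse, because the only group compared is set against 1 pool.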
